A study of Mus musculus with 19 samples.

Results

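The 9 genes described here encode receptors of the CD28 and ICOS pair (Cd28, Icos), the receptor Cd226, 5 receptors of the SLAM family (Slamf1, Slamf6, Slamf7, Cd84, Ly9) and the SLAM adaptor SAP (Sh2d1a). They were chosen by name, as rows whose gene name is 1 of these, out of 25639 genes in the tables. The study sequenced RNA of T cells, CD8 and CD4 apart, that had infiltrated the liver metastases of mice 30 days after colorectal cancer cells labelled Venus-AKTPM/LOH were put into the spleen. All mice carried floxed Tet2, whose product oxidises the methyl group of methylated cytosines. Vav1CreTet2KO mice had Tet2 removed by a Cre active across blood cells, so that other immune cells of the tumour are targeted too. Cd4CreTet2KO mice had it removed by a Cre driven by Cd4, which is switched on in thymocytes before the CD4 and CD8 lineages part, so that both sorted cell types are targeted. Tet2fl/fl mice were the controls. The CD8 libraries numbered 3 for Vav1CreTet2KO, 4 for Cd4CreTet2KO and 3 for Tet2fl/fl, and each genotype had 3 CD4 libraries. By the numbers in the labels, 11 animals gave the 19 libraries, and 8 of them gave both cell types. The sources used here do not give ages.

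A T cell that meets antigen through its receptor needs a second signal. CD28 gives it when it binds CD80 or CD86 on an antigen-presenting cell, and the inhibitory receptor CTLA-4 competes for the same ligands. ICOS, a relative of CD28, appears after activation, binds ICOS ligand and is known for its role in follicular helper and regulatory CD4 T cells. CD226, also called DNAM-1, binds CD155 and nectin-2 and promotes killing by NK and CD8 T cells, and TIGIT competes with it for CD155. Most SLAM receptors bind a copy of themselves on the neighbouring cell and signal through SAP, which recruits the kinase FYN. SLAM receptors are also made by B cells, NK cells, macrophages and dendritic cells, so a level in sorted T cells can include RNA of other cells.

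The CD8 libraries held 8189300 to 20327809 reads on genes and the CD4 libraries 707866 to 17575534, where the shallowest was Vav1CreTet2KO replicate 1. Sorting was visible in the summed level of Cd8a and Cd8b1, which was 231 to 428 RPKM in CD8 libraries and 0 to 8.01 RPKM in CD4 libraries. RPKM divides the reads of a gene by its length and by the size of the library. Summed markers of dendritic cells and MHC class II (9 genes) reached 1010 to 2728 RPKM in CD8 Vav1CreTet2KO and 340 to 2923 RPKM in CD8 Cd4CreTet2KO, against 61.2 to 406 RPKM in CD8 Tet2fl/fl. Of these 9 markers, 5 rose in CD8 Vav1CreTet2KO and 0 passed in CD8 Cd4CreTet2KO, where 8 had an unadjusted p under 0.05 (limma, adjusted p under 0.05 to pass). Summed macrophage markers (10 genes) reached 268 RPKM in replicate 1 and 140 RPKM in replicate 2 of CD8 Cd4CreTet2KO and lay between 5.51 and 47.5 RPKM in the other 8 CD8 libraries. Tet2 itself did not pass in any knockout comparison. Its level was 2.93 to 6.28 RPKM in CD8 Vav1CreTet2KO, 3.01 to 7.57 RPKM in CD8 Cd4CreTet2KO and 6.57 to 8.06 RPKM in CD8 Tet2fl/fl, and it was in CD4 cells 2.77 to 5.65 RPKM in Vav1CreTet2KO, 4.53 to 7.28 RPKM in Cd4CreTet2KO and 3.87 to 7.02 RPKM in Tet2fl/fl. Its log2 differences from Tet2fl/fl were -0.55 and -0.54 in CD8 cells and -0.16 and 0.25 in CD4 cells, Vav1CreTet2KO first, so that it was not lower in CD4 Cd4CreTet2KO. Whole-gene RPKM cannot show whether an exon is missing. In bulk samples, fewer cells of a type and less RNA per cell cannot be told apart.

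All 9 genes were detected in every library. Across the 19 libraries, Icos spanned 4.50 to 87.1 RPKM with a median of 22.5 RPKM, and Cd28 spanned 7.59 to 31.8 RPKM with a median of 19.4 RPKM. Among the SLAM receptors, median levels were 17.2 RPKM for Ly9, 12.2 RPKM for Slamf1, 8.75 RPKM for Cd84, 6.97 RPKM for Slamf7 and 3.92 RPKM for Slamf6. Highest over lowest level, Slamf7 had the widest span of the 9, from 0.428 to 29.7 RPKM, and Cd84 the narrowest, from 6.32 to 14.6 RPKM. Sh2d1a had a median of 4.47 RPKM. Its lowest depth was 9 reads, in CD4 Vav1CreTet2KO replicate 1, so its level there is coarse.

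**Figure D1:**
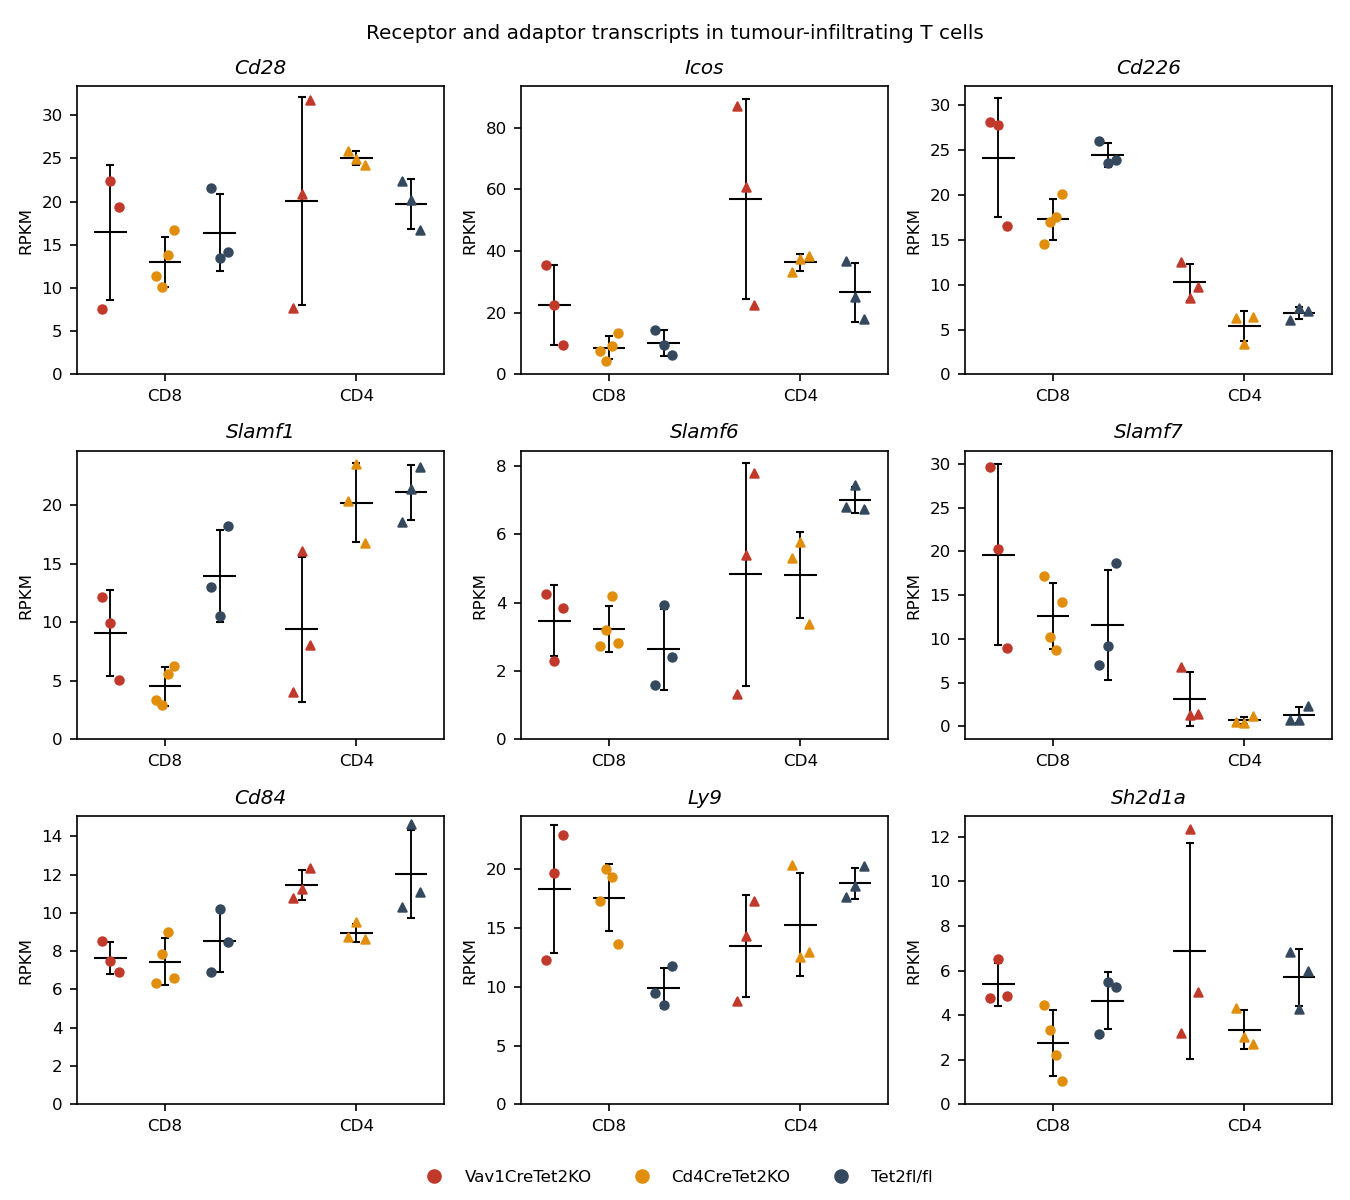
Level of each gene in RPKM (vertical axis, linear, from 0) in the 19 libraries, with CD8 libraries as circles and CD4 libraries as triangles; bars give the mean and whiskers 1 SD of 3 or 4 libraries. Cd226 and Slamf7 lay higher in CD8 than in CD4 libraries in each genotype, and the mean of Icos lay lower.

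The clearest difference among these genes was between the cell types. Cd226 and Slamf7 were higher in CD8 than in CD4 T cells in all 3 genotypes. Icos and Slamf1 were lower in CD8 than in CD4 T cells of Cd4CreTet2KO mice. No other member passed in any genotype. These tests used limma on log2(RPKM + 1) of all 19 libraries with Benjamini-Hochberg adjustment over 11121 genes, a scale that understates the change of genes near 0. The 2 cell types stand in separate tables, each library scaled on its own with 1 length per gene in both, and any difference in handling between the tables cannot be told apart from cell type.

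Cd226 (ENSMUSG00000034028, chromosome 18, 89195091 to 89290353, plus strand, as the tables give it) is the activating receptor of its family. Its level was 28.2, 27.8 and 16.5 RPKM in CD8 against 12.6, 8.50 and 9.73 RPKM in CD4 T cells of Vav1CreTet2KO mice. In Cd4CreTet2KO mice it was 14.6, 17.0, 17.5 and 20.2 RPKM in CD8 against 6.31, 3.42 and 6.39 RPKM in CD4 T cells. In Tet2fl/fl mice it was 26.0, 23.6 and 23.9 RPKM in CD8 against 6.06, 7.43 and 7.04 RPKM in CD4 T cells. Every CD8 library of any genotype thus lay above every CD4 library. The log2 fold change was 1.14 (SE 0.27, adjusted p = 0.0415) in Vav1CreTet2KO, 1.55 (SE 0.25, adjusted p = 0.00148) in Cd4CreTet2KO and 1.70 (SE 0.27, adjusted p = 0.00106) in Tet2fl/fl, by limma. Within the 8 animals that gave both cell types, CD8 levels were 1.70 to 4.30 times the CD4 levels, and higher in 8 of 8. Group means ran from 24.5 ± 1.33 RPKM (SD, n = 3) in CD8 Tet2fl/fl through 24.2 ± 6.61 (n = 3) in CD8 Vav1CreTet2KO, 17.3 ± 2.30 (n = 4) in CD8 Cd4CreTet2KO, 10.3 ± 2.09 (n = 3) in CD4 Vav1CreTet2KO and 6.84 ± 0.705 (n = 3) in CD4 Tet2fl/fl to 5.37 ± 1.69 (n = 3) in CD4 Cd4CreTet2KO. Neighbours of 1 cell type in that order were not separated by a test.

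Slamf7 (ENSMUSG00000038179, chromosome 1, 171459971 to 171480603, minus strand, as the tables give it), also called CRACC, is known from cytotoxic cells and does not depend on SAP. In Vav1CreTet2KO mice it stood at 29.7, 20.2 and 8.96 RPKM in CD8 against 6.74, 1.26 and 1.40 RPKM in CD4 T cells. In Cd4CreTet2KO mice it stood at 17.2, 10.3, 8.77 and 14.2 RPKM in CD8 against 0.540, 0.428 and 1.18 RPKM in CD4 T cells. In Tet2fl/fl mice it stood at 6.97, 9.13 and 18.7 RPKM in CD8 against 0.724, 0.748 and 2.32 RPKM in CD4 T cells. The groups did not overlap in any genotype, and the highest CD4 library was the shallow Vav1CreTet2KO replicate 1, whose value rests on 57 reads. The log2 fold change was 2.42 (SE 0.50, adjusted p = 0.0214) in Vav1CreTet2KO, 2.97 (SE 0.47, adjusted p = 0.00106) in Cd4CreTet2KO and 2.44 (SE 0.50, adjusted p = 0.010) in Tet2fl/fl, by limma. CD8 levels were 4.40 to 16.3 times the CD4 levels of the same animal, and higher in 8 of 8. Summed NK cell markers (4 genes) were 7.46 to 10.1 RPKM in CD8 Vav1CreTet2KO, 3.21 to 9.35 RPKM in CD8 Cd4CreTet2KO and 2.92 to 10.2 RPKM in CD8 Tet2fl/fl, against 0 to 6.74 RPKM in CD4 libraries. In CD8 libraries 0 to 2 of these 4 markers were at 0, and in CD4 libraries 2 to 4. The dendritic cell and MHC class II markers, of cells that can also carry SLAM receptors, summed to 1010 to 2728 RPKM in CD8 against 402 to 813 RPKM in CD4 libraries of Vav1CreTet2KO mice (0 of 9 passed) and to 340 to 2923 RPKM against 90.8 to 229 RPKM in Cd4CreTet2KO mice (4 of 9 higher). In Tet2fl/fl mice they summed to 61.2 to 406 RPKM in CD8 against 85.9 to 206 RPKM in CD4 libraries, with a median log2 difference of 0.03. The part of NK and dendritic cell markers in the Slamf7 difference was not tested.

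Icos (ENSMUSG00000026009, chromosome 1, 61017086 to 61039479, plus strand, as the tables give it) lay in the opposite direction. It stood at 35.5, 22.5 and 9.49 RPKM in CD8 against 87.1, 60.9 and 22.5 RPKM in CD4 T cells of Vav1CreTet2KO mice. In Cd4CreTet2KO mice it stood at 7.65, 4.50, 9.10 and 13.6 RPKM in CD8 against 33.1, 37.5 and 38.3 RPKM in CD4 T cells. In Tet2fl/fl mice it stood at 14.5, 9.66 and 6.36 RPKM in CD8 against 36.8, 25.3 and 17.9 RPKM in CD4 T cells. The groups were apart in Cd4CreTet2KO and Tet2fl/fl mice and overlapped in Vav1CreTet2KO mice. The highest value, 87.1 RPKM, rests on 552 reads of the shallow CD4 Vav1CreTet2KO replicate 1. The log2 fold change was -1.28 (SE 0.49, adjusted p = 0.208) in Vav1CreTet2KO, -2.03 (SE 0.45, adjusted p = 0.0209) in Cd4CreTet2KO and -1.32 (SE 0.49, adjusted p = 0.258) in Tet2fl/fl, by limma. In every one of the 8 animals the CD8 level was the lower, at 0.275 to 0.422 of the CD4 level. Summed markers of regulatory T cells (Foxp3, Ikzf2, Il2ra), a CD4 subset known to carry ICOS, were 4.95 to 20 RPKM in CD8 against 39.3 to 136 RPKM in CD4 T cells of Vav1CreTet2KO mice. They were 5.86 to 17.3 RPKM in CD8 against 117 to 172 RPKM in CD4 T cells of Cd4CreTet2KO mice, and 23.2 to 35.9 RPKM in CD8 against 108 to 153 RPKM in CD4 T cells of Tet2fl/fl mice. Their part in the Icos difference was not tested.

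Slamf1 (ENSMUSG00000015316, chromosome 1, 171594695 to 171628752, plus strand, as the tables give it), or CD150, is the founding receptor of the SLAM family and binds itself on neighbouring lymphocytes. In Cd4CreTet2KO mice it stood at 3.35, 2.90, 5.62 and 6.29 RPKM in CD8 against 20.3, 23.6 and 16.8 RPKM in CD4 T cells, with no overlap. Its log2 fold change there was -1.98 (SE 0.37, limma adjusted p = 0.00483). In Tet2fl/fl mice it stood at 13.1, 10.6 and 18.2 RPKM in CD8 against 18.6, 21.4 and 23.3 RPKM in CD4 T cells, a log2 difference of -0.59 (SE 0.39, limma adjusted p = 0.724). In Vav1CreTet2KO mice it stood at 12.2, 9.97 and 5.07 RPKM in CD8 against 4.02, 16.1 and 8.07 RPKM in CD4 T cells, a log2 difference of 0.06 (SE 0.39, limma adjusted p = 0.962) that turned to -0.0091 after scaling by size factors. The CD8 level was lower in 7 of the 8 animals. The exception was the animal of Vav1CreTet2KO replicate 1, whose CD4 value rests on 20 reads. Without both Cd4CreTet2KO CD8 libraries of highest macrophage marker level, the log2 fold changes in Cd4CreTet2KO mice were -1.60 for Slamf1 (adjusted p = 0.138) and -1.62 for Icos (adjusted p = 0.342), and neither passed by limma.

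**Figure D2:**
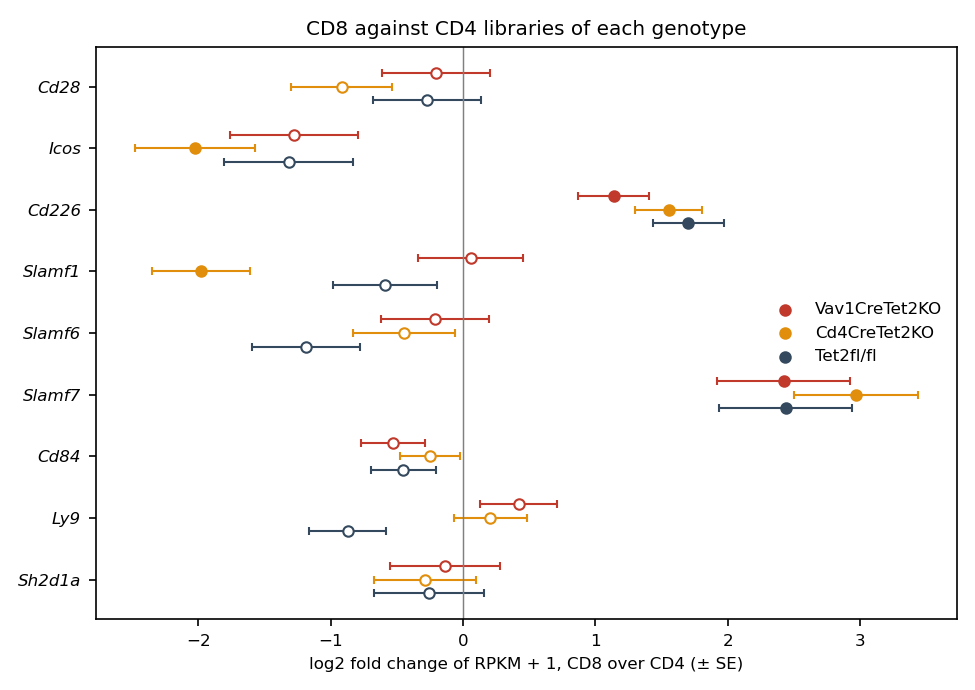
Log2 fold change of RPKM + 1 of CD8 over CD4 T cells (horizontal axis) for each gene and genotype; whiskers give 1 SE from limma, filled points passed an adjusted p of 0.05 and open points did not. Cd226 and Slamf7 passed in 3 of 3 genotypes, between 1.14 and 2.97, and Icos and Slamf1 passed in Cd4CreTet2KO only.

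Counted over the 9 members, 2 of 9 passed in Vav1CreTet2KO, against 1.32% of all genes tested in CD8 against CD4 T cells. In Cd4CreTet2KO 4 of 9 passed, against 1.89% of all genes tested, and in Tet2fl/fl 2 of 9 passed, against 1.86%. The median log2 difference of the 9 was -0.14 in Vav1CreTet2KO, -0.29 in Cd4CreTet2KO and -0.45 in Tet2fl/fl, while the median of all genes tested was 0.18, -0.03 and 0.04. An animal block left the same members called in each genotype. In Vav1CreTet2KO the calls of Cd226 and Slamf7 were both lost without CD8 replicate 1, without CD8 replicate 2 or without CD4 replicate 2, with log2 differences of 1.01 to 1.02 for Cd226 and 2.06 to 2.33 for Slamf7. The Slamf7 call in Tet2fl/fl was lost without CD8 replicate 3 or without CD4 replicate 1 or 2, with adjusted p from 0.0577 to 0.0921. The Icos call in Cd4CreTet2KO was lost without any 1 of the 3 CD4 libraries and without CD8 replicate 1 or 2. The Slamf1 call was lost without CD4 replicate 2, where the adjusted p was just over the threshold (0.050 when rounded).

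The other 5 members did not pass in any genotype. Cd28 was lower in CD8 than in the CD4 cells of the same animal in 7 of 8 animals. Its log2 difference was -0.20 in Vav1CreTet2KO, -0.92 in Cd4CreTet2KO and -0.27 in Tet2fl/fl, with adjusted p from 0.372 to 0.937 by limma. Slamf6, or Ly108, marks stem-like CD8 T cells in chronic infection and tumours of mice. It averaged 3.47 ± 1.04 RPKM in CD8 against 4.83 ± 3.27 RPKM in CD4 T cells of Vav1CreTet2KO mice and 3.23 ± 0.680 against 4.81 ± 1.27 RPKM in Cd4CreTet2KO mice. In Tet2fl/fl mice it averaged 2.64 ± 1.18 RPKM in CD8 against 7.00 ± 0.378 RPKM in CD4 T cells (SD, n = 3 each), and these groups did not overlap (log2 difference -1.18, SE 0.41, limma adjusted p = 0.207). Cd84, a self-binding SLAM receptor that steadies contacts between T and B cells, had log2 differences of -0.53, -0.25 and -0.45 in the same order of genotypes. Sh2d1a had log2 differences of -0.14, -0.29 and -0.26. Ly9 had log2 differences of 0.42 (adjusted p = 0.491) in Vav1CreTet2KO and 0.21 (adjusted p = 0.9999) in Cd4CreTet2KO, both with overlap, and of -0.87 (SE 0.29, adjusted p = 0.183) in Tet2fl/fl, where the cell types did not overlap, by limma. Over all 9 genes, the CD8 and CD4 groups did not overlap for 3 in Vav1CreTet2KO (9.17% of all genes), 5 in Cd4CreTet2KO (17.7%) and 7 in Tet2fl/fl (22.5%).

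Partners of these receptors were counted from lists of ligands, competitors and signalling genes. Ctla4, the CD28 competitor, was lower in CD8 T cells of Cd4CreTet2KO mice, at 26.7, 10.1, 22.6 and 64.8 RPKM in CD8 against 165, 288 and 188.1 RPKM in CD4 T cells (log2 fold change -2.99, SE 0.59, limma adjusted p = 0.00764). It was 1 of 4 tested genes of its list there and none of 4 passed in the other genotypes. Of 4 tested CD226 partners, Tigit was lower in CD8 T cells of Cd4CreTet2KO mice (log2 fold change -1.62, SE 0.40, limma adjusted p = 0.0371). Cd96, another receptor of CD155, was higher in CD8 T cells of Tet2fl/fl mice (1.24, SE 0.28, limma adjusted p = 0.0192). Cd244a, which encodes the SLAM receptor 2B4, was 1 of 5 tested genes of the other SLAM receptors and adaptors, and rose in CD8 T cells of Cd4CreTet2KO (1.81, SE 0.38, adjusted p = 0.0124) and Tet2fl/fl mice (2.46, SE 0.40, adjusted p = 0.00135), by limma. Maf, a regulator of follicular helper genes, was lower in CD8 T cells in all 3 genotypes, with log2 fold changes of -2.89 to -2.44, as 1 of 7 tested genes of its list. The median log2 difference of these 7 was -0.32 in Vav1CreTet2KO, 0.21 in Cd4CreTet2KO and -0.52 in Tet2fl/fl mice. The list of 9 summed to 30.7 to 89.4 RPKM in CD8 against 48.8 to 62.6 RPKM in CD4 libraries of Vav1CreTet2KO. It summed to 32.9 to 64.5 RPKM against 69.2 to 90.1 RPKM in Cd4CreTet2KO. In Tet2fl/fl the order was the other way, at 103 to 133 RPKM in CD8 against 67.0 to 81.8 RPKM in CD4 libraries. Of 16 tested CD28 signalling genes, among them the kinase gene Lck, 0 passed in any genotype by limma, with 5, 4 and 2 at an unadjusted p under 0.05 in Vav1CreTet2KO, Cd4CreTet2KO and Tet2fl/fl, beside 15.9%, 9.76% and 10.5% of all genes.

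The tables place the SLAM receptors of this set in 1 stretch of chromosome 1, from 171416192 at Ly9 to 171780737 at Slamf6. Slamf7 and Slamf1 thus lie in the same stretch, and their calls between the cell types had opposite signs. The window upstream of Slamf1, the SLAM gene whose level came nearest to a call in a knockout, is shown because Tet2 acts on methylated cytosine and CG pairs are where most of it lies. It runs from 250 to 11 bases before the RefSeq start (GRCm38.p6), 5′ to 3′ on the strand of the gene, with CG pairs in capitals. Its coordinates are those of GRCm38, which differ from the deposited gene coordinates above, so the window cannot be placed among those.
Slamf1, chr1:171766882-171767121, plus strand: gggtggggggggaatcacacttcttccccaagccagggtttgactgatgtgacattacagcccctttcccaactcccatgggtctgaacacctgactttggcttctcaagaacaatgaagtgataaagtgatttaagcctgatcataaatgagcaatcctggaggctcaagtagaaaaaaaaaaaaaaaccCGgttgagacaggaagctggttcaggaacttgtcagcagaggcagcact
A promoter entry was found for 4 of the 9 members, and that of Slamf7 was not used because its start lies 4036 bases inside the gene as GENCODE annotates it. The windows hold 1 CG pair at Slamf1, 1 at Slamf6 and 2 at Cd84, against a median of 5 over all 32851 windows of the same length, of which 39.1% hold 3 or fewer. DNA methylation was not measured in these libraries, so the counts describe the sequence only.

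Loss of Tet2 did not move any of the 9 genes past the threshold. None passed in CD8 Vav1CreTet2KO against Tet2fl/fl, where 1.45% of all genes did, nor in CD8 Cd4CreTet2KO, where 0.509% did, by limma. None passed in CD4 Vav1CreTet2KO against Tet2fl/fl (0.00738% of all genes) or in CD4 Cd4CreTet2KO (0.0295%), by edgeR's quasi-likelihood test. At an unadjusted p under 0.05 the members numbered 1, 2, 2 and 0 of 9 in these 4 comparisons, where 17.3%, 12.4%, 11.9% and 2.5% of all genes were. On reads recovered from the CD8 values, edgeR called 0 and 0 members and DESeq2 called 1 and 2, while DESeq2 called 0 and 0 in CD4 cells. Over all genes, edgeR on recovered reads called 91 and 64. DESeq2 called 931 and 606 in CD8 and 573 and 42 in CD4 cells. The median of all genes was -0.11 in CD8 Vav1CreTet2KO and -0.15 in CD8 Cd4CreTet2KO as deposited, and -0.02 and 0.01 after scaling the libraries by size factors.

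**Figure D3:**
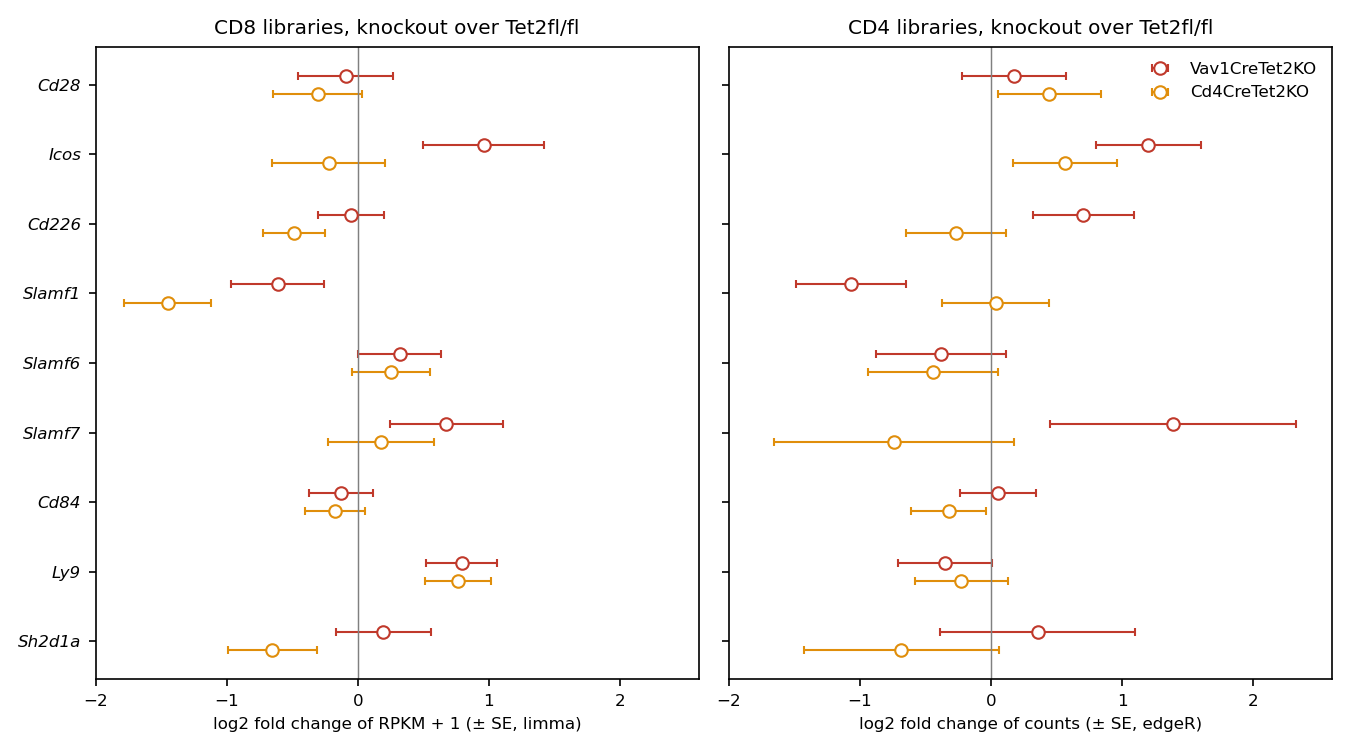
Log2 fold change of each knockout over Tet2fl/fl (horizontal axis) in CD8 libraries (left, limma on RPKM + 1) and CD4 libraries (right, edgeR on counts). Points give the estimate and whiskers 1 SE, which for edgeR was derived from the F statistic. All points are open because none passed an adjusted p of 0.05. In CD8 cells Ly9 lay above 0 in both knockouts, at 0.79 and 0.77, and Slamf1 lay below 0, at -0.61 and -1.45.

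Slamf1 came nearest. In CD8 T cells it stood at 3.35, 2.90, 5.62 and 6.29 RPKM in Cd4CreTet2KO against 13.1, 10.6 and 18.2 RPKM in Tet2fl/fl, so every knockout library lay below every control. In the same libraries the regulatory T cell markers summed to 5.86 to 17.3 RPKM in Cd4CreTet2KO against 23.2 to 35.9 RPKM in Tet2fl/fl, and Cd8a and Cd8b1 to 231 to 301 RPKM against 335 to 428 RPKM, both without overlap. Their part in the Slamf1 difference was not tested. The log2 difference was -1.45 (SE 0.33, 95% interval -2.17 to -0.73 before adjustment, limma adjusted p = 0.0798), or -1.30 relative to the median of all genes. It passed with only these groups in the fit (limma adjusted p = 0.0257) and in DESeq2 on recovered reads (adjusted p = 0.00823). Those settings called 279 and 606 genes, against 52 in the main fit. It did not pass with edgeR on recovered reads, size-factor scaling, a pseudocount of 0.1, no filter or a replicate block. Nor did it pass with any single library left out. Without both libraries of highest macrophage marker level the log2 difference was -1.07 (limma adjusted p = 0.480). In CD8 Vav1CreTet2KO Slamf1 was 12.2, 9.97 and 5.07 RPKM, which overlapped the controls (log2 difference -0.61, SE 0.36, limma adjusted p = 0.395). In CD4 T cells it was 4.02, 16.1 and 8.07 RPKM in Vav1CreTet2KO against 18.6, 21.4 and 23.3 RPKM in Tet2fl/fl, again without overlap (log2 difference -1.07, SE 0.42, edgeR adjusted p = 0.349). The value of 4.02 RPKM, of the shallow replicate 1, rests on 20 reads. With libraries left out in turn, this difference ran from -1.57 to -0.75, with edgeR adjusted p from 0.225 to 0.629. The regulatory T cell markers in the same CD4 libraries summed to 40.0, 136 and 39.3 RPKM in Vav1CreTet2KO replicates 1 to 3 against 153, 143 and 108 RPKM in Tet2fl/fl, and their part in the Slamf1 values was not tested. CD4 Cd4CreTet2KO libraries, at 20.3, 23.6 and 16.8 RPKM, overlapped the controls (0.03, SE 0.41, edgeR adjusted p = 0.9998).

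Ly9 (ENSMUSG00000004707, chromosome 1, 171416192 to 171434978, minus strand, as the tables give it), or CD229, is a self-binding SLAM receptor of T and B cells. Its CD8 levels were 12.3, 19.7 and 22.9 RPKM for Vav1CreTet2KO mice and 17.2, 19.9, 19.3 and 13.6 RPKM for Cd4CreTet2KO mice, against 9.45, 8.45 and 11.7 RPKM in Tet2fl/fl. All 7 knockout libraries thus lay above all 3 controls, which both comparisons share. The log2 difference was 0.79 (SE 0.27, 95% interval 0.21 to 1.38, adjusted p = 0.166) in Vav1CreTet2KO and 0.77 (SE 0.25, 95% interval 0.22 to 1.31, adjusted p = 0.207) in Cd4CreTet2KO, by limma. DESeq2 on recovered reads called both, with adjusted p of 0.0473 and 0.0345. It called 931 and 606 genes in these comparisons, against 148 and 52 by limma. On the same reads edgeR called neither. The recovered reads of CD8 Vav1CreTet2KO replicate 1 may be in another unit than those of the other libraries. The dendritic cell and MHC class II markers of the same libraries summed to 1010 to 2728 RPKM in Vav1CreTet2KO and 340 to 2923 RPKM in Cd4CreTet2KO, against 61.2 to 406 RPKM in Tet2fl/fl, and their part in the Ly9 difference was not tested. Its CD4 levels were 8.80, 14.3 and 17.3 RPKM for Vav1CreTet2KO mice and 20.3, 12.5 and 12.9 RPKM for Cd4CreTet2KO mice, against 17.6, 18.6 and 20.2 RPKM in Tet2fl/fl. Those differences were -0.35 (SE 0.36, adjusted p = 0.764) and -0.23 (SE 0.35, adjusted p = 0.9998) by edgeR.

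Icos was higher on average in Vav1CreTet2KO in both cell types, with overlap. In CD8 T cells it was 35.5, 22.5 and 9.49 RPKM in Vav1CreTet2KO against 14.5, 9.66 and 6.36 RPKM in Tet2fl/fl (log2 difference 0.96, SE 0.46, limma adjusted p = 0.310). Summed CD4 T cell markers (Cd4, Cd40lg, Zbtb7b) were 11.2 to 15.3 RPKM in these Vav1CreTet2KO libraries against 4.17 to 4.93 RPKM in Tet2fl/fl. Of these 3 markers, 1 was called higher by limma. Regulatory T cell markers went the other way, at 4.95 to 20 RPKM against 23.2 to 35.9 RPKM. The part of either list in the Icos difference was not tested. In CD4 T cells Icos was 87.1, 60.9 and 22.5 RPKM in Vav1CreTet2KO against 36.8, 25.3 and 17.9 RPKM in Tet2fl/fl (1.20, SE 0.40, edgeR adjusted p = 0.287). The value of 87.1 RPKM, of the shallow replicate 1, rests on 552 reads. The CD4 difference passed without Vav1CreTet2KO replicate 3, a setting that keeps replicate 1 (1.55, edgeR adjusted p = 0.0158). It also passed with no filter on low counts (1.24, edgeR adjusted p = 0.0141). Those settings called 819 of 14409 and 383 of 20159 genes, against 1 of 13554 in the main test. With other libraries left out in turn, the CD4 log2 difference fell as low as 0.70, with edgeR adjusted p up to 0.629. In Cd4CreTet2KO the log2 difference of Icos was -0.22 (SE 0.43) in CD8 by limma and 0.56 (SE 0.39) in CD4 cells by edgeR.

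Cd226 did not overlap between groups in 2 of these comparisons. In CD8 T cells it was 14.6, 17.0, 17.5 and 20.2 RPKM in Cd4CreTet2KO against 26.0, 23.6 and 23.9 RPKM in Tet2fl/fl (log2 difference -0.48, SE 0.24, limma adjusted p = 0.436). The summed Cd8a and Cd8b1 of these libraries were 231 to 301 RPKM in Cd4CreTet2KO against 335 to 428 RPKM in Tet2fl/fl, with a median log2 difference of -0.61, and that of 6 general T cell markers was -0.46. None of these 8 markers passed by limma, and their part in the Cd226 difference was not tested. In CD4 T cells it was 12.6, 8.50 and 9.73 RPKM in Vav1CreTet2KO against 6.06, 7.43 and 7.04 RPKM in Tet2fl/fl (0.70, SE 0.38, edgeR adjusted p = 0.498). Such separation is common here. In CD8 Vav1CreTet2KO 1 of 9 members did not overlap its controls, against 19.9% of all genes, and in CD8 Cd4CreTet2KO 3 of 9 did not, against 17.8%. In CD4 cells it was 3 of 9 in Vav1CreTet2KO, against 15.7% of all genes, and 3 of 9 in Cd4CreTet2KO, against 13.8%. The 3 of CD4 Cd4CreTet2KO were Cd28, which was higher, and Slamf6 and Cd84, which were lower, with log2 differences of 0.44, -0.45 and -0.32.

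Tigit and Cd96, which share ligands with Cd226, were looked at in the knockouts after their values were seen. Tigit was 48.3, 47.4 and 19.2 RPKM in CD8 Vav1CreTet2KO and 31.8, 13.5, 27.3 and 37.8 RPKM in CD8 Cd4CreTet2KO, against 154, 103 and 63.8 RPKM in CD8 Tet2fl/fl. All 7 knockout libraries lay below the controls. The regulatory T cell markers, in cells known to carry TIGIT, were also apart in these libraries, at 4.95 to 20 RPKM in Vav1CreTet2KO and 5.86 to 17.3 RPKM in Cd4CreTet2KO, against 23.2 to 35.9 RPKM in Tet2fl/fl, and their part in the Tigit values was not tested. The log2 differences were -1.48 (SE 0.45, adjusted p = 0.125) and -1.92 (SE 0.42, adjusted p = 0.0701) by limma. Cd96 was 11.6, 27.5 and 25.1 RPKM in CD8 Vav1CreTet2KO and 20.1, 21.0, 15.7 and 17.3 RPKM in CD8 Cd4CreTet2KO, against 46.6, 31.9 and 36.5 RPKM in CD8 Tet2fl/fl, with log2 differences of -0.88 (SE 0.31, adjusted p = 0.175) and -1.001 (SE 0.29, adjusted p = 0.149) by limma. The median of the 4 tested CD226 partners was -1.18 and -1.42 in these comparisons, beside -0.11 and -0.15 for all genes. No gene of the 5 partner and signalling lists passed in a comparison of a knockout with Tet2fl/fl. At an unadjusted p under 0.05 there were 11 of 35 tested in CD8 Vav1CreTet2KO and 15 of 35 in CD8 Cd4CreTet2KO by limma, and 7 of 38 in CD4 Vav1CreTet2KO and 3 of 38 in CD4 Cd4CreTet2KO by edgeR, beside 17.3%, 12.4%, 11.9% and 2.5% of all genes.

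The remaining members, Cd28, Slamf6, Slamf7, Cd84 and Sh2d1a, had log2 differences from Tet2fl/fl between -0.65 and 0.68 in CD8 cells and between -0.74 and 1.39 in CD4 cells. The extreme CD4 value was that of Slamf7 in Vav1CreTet2KO, at 6.74, 1.26 and 1.40 RPKM against 0.724, 0.748 and 2.32 RPKM in Tet2fl/fl (SE 0.94, edgeR adjusted p = 0.613). Intervals show how much these data leave undetermined. For Cd84 in CD8 cells the 95% interval was -0.66 to 0.40 in Vav1CreTet2KO and -0.67 to 0.32 in Cd4CreTet2KO. For Sh2d1a, which was 4.47, 3.32, 2.21 and 1.03 RPKM in CD8 Cd4CreTet2KO against 3.18, 5.47 and 5.29 RPKM in CD8 Tet2fl/fl, the 95% interval was -1.39 to 0.08.

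Between the knockouts, no member passed in CD8 T cells, where 0% of all genes did by limma (647 of 10224 at an unadjusted p under 0.05, 0 by edgeR and 95 by DESeq2 on recovered reads). All 9 members had a positive log2 difference of Vav1CreTet2KO over Cd4CreTet2KO in CD8 cells, from 0.03 to 1.18, and 3 had an unadjusted p under 0.05. These were Icos (1.18, SE 0.43), Slamf1 (0.84, SE 0.33) and Sh2d1a (0.85, SE 0.34), each at a limma adjusted p of 0.723. The median of all genes tested was 0.04, or -0.04 after scaling by size factors, and that of 6 general T cell markers was 0.27. The directions of Slamf6, Cd84 and Ly9, all under 0.07, turned after scaling by size factors. Those of Cd28, Slamf6 and Cd84 turned without both Cd4CreTet2KO libraries of highest macrophage marker level. Sh2d1a was 4.79, 6.51 and 4.87 RPKM in Vav1CreTet2KO against 4.47, 3.32, 2.21 and 1.03 RPKM in Cd4CreTet2KO, the 1 member of 9 without overlap, against 4.53% of all genes. In CD4 T cells no member passed either, where 0.0664% of all genes did by edgeR, with 3 members at an unadjusted p under 0.05 (10.7% of all genes) and 0 called by DESeq2. Without overlap there were Cd226 (0.97, SE 0.39, adjusted p = 0.394), Slamf7 (2.13, SE 0.96, adjusted p = 0.453), Cd84 (0.38, SE 0.29, adjusted p = 0.702) and, on the lower side, Slamf1 (-1.10, SE 0.42, adjusted p = 0.372), by edgeR. These 4 of 9 stand beside 19.5% of all genes. Slamf7 was low in both groups, at 6.74, 1.26 and 1.40 RPKM against 0.540, 0.428 and 1.18 RPKM. The value of 6.74 RPKM, of the shallow replicate 1, rests on 57 reads. With libraries left out in turn, the Slamf7 difference fell as low as 0.89.

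Whether the effect of a knockout differed between CD8 and CD4 cells was tested as an interaction in the limma fit of all 19 libraries. No member passed for Vav1CreTet2KO (0% of all genes, 1022 of 11121 at an unadjusted p under 0.05) or for Cd4CreTet2KO (0.0629% of all genes). The members at an unadjusted p under 0.05 were Ly9 for both knockouts and Slamf1 for Cd4CreTet2KO. Of all genes, 9.19% were under that p for Vav1CreTet2KO and 5.66% for Cd4CreTet2KO. For Ly9 the effect in CD8 minus that in CD4 cells was 1.29 (SE 0.41, adjusted p = 0.364) for Vav1CreTet2KO and 1.08 (SE 0.40, adjusted p = 0.743) for Cd4CreTet2KO, by limma. For Slamf1 it was -1.39 (SE 0.54, limma adjusted p = 0.762) for Cd4CreTet2KO. The same values state how the CD8 minus CD4 difference varied with genotype, so the genotypes in which Icos or Slamf1 were called were not shown to differ from Tet2fl/fl in that respect.

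Across the 19 libraries, Cd226 and Slamf7 had a Pearson correlation of 0.92 on log2(RPKM + 1), the strongest of the 36 pairs of members, followed by -0.67 for Cd28 and Slamf7. These values describe points that share cell type, depth and animal. The genes most like Cd226 among 10136 were Nkg7, which encodes a cytotoxic granule protein (0.95), and the NK receptor genes Cd160 (0.95) and Klrc1 (0.95). Those most like Slamf7 were Cd160 (0.93), Klrc1 (0.92) and the chemokine gene Ccl5 (0.92). Slamf1 was most like Apbb1 (0.93), Ikzf4, which encodes the Ikaros factor Eos (0.88), and Vps54 (0.88). Icos was most like the splicing kinase gene Clk1 (0.89), Arl4a (0.87) and the cyclic AMP regulator gene Crem (0.87). Slamf6 was like Tlr1 (0.88), Cd28 like Nfatc3, Lats2 and Ighmbp2 (0.82 to 0.84), and Ly9 like Cd55, Galnt10 and Il17ra (0.81 to 0.84). Cd84 had its highest value with Pik3c2a (0.83) and Sh2d1a with Tmem175 (0.80).

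**Figure D4:**
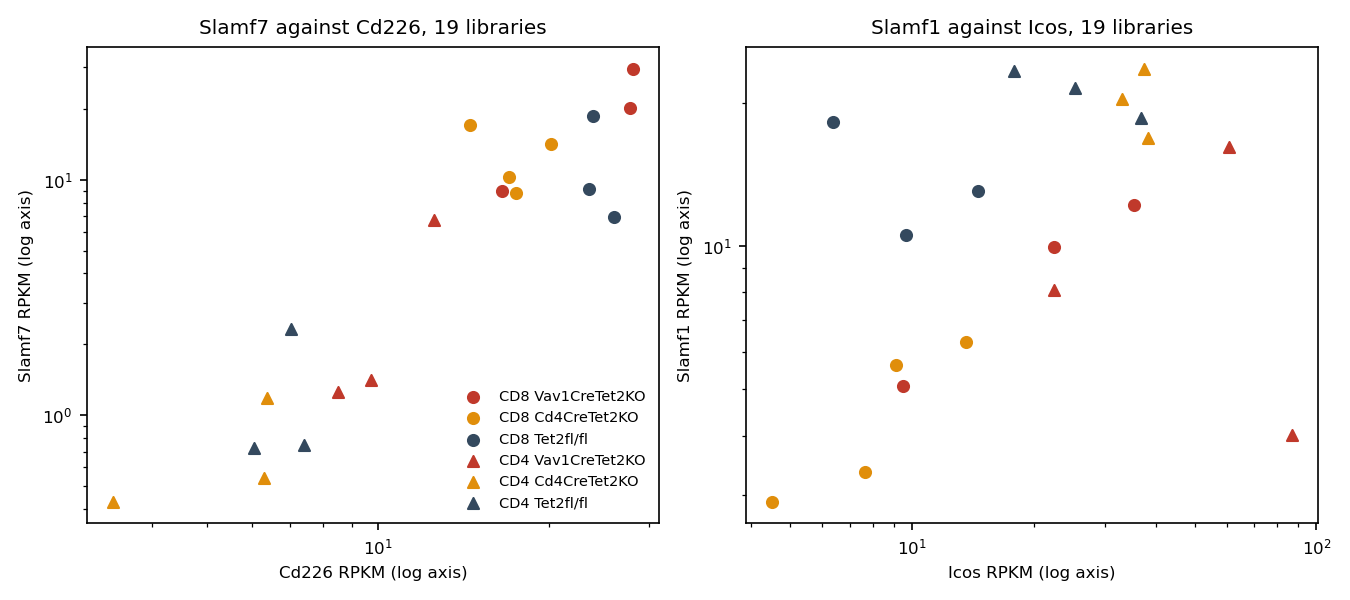
Level of Slamf7 against Cd226 (left) and of Slamf1 against Icos (right) in the 19 libraries, in RPKM on log axes, with CD8 libraries as circles and CD4 libraries as triangles. In the left panel the CD8 and CD4 libraries form separate clouds, with no Slamf7 value above 6.74 RPKM in CD4 libraries. In the right panel the CD4 Vav1CreTet2KO library of 87.1 RPKM Icos has 4.02 RPKM Slamf1. It is the shallow replicate 1, and its Slamf1 value rests on 20 reads.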

How the data were processed

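RNA from sorted tumour-infiltrating CD8 and CD4 T cells was made into SMARTer Stranded Total RNA Pico libraries and sequenced in pairs, per the labels' protocols. The deposited CD8 table gives RPKM, which the authors computed library by library, and the deposited CD4 table gives raw read counts and RPKM. The submitters' processing notes name GRCm38 and mm10, but the deposited gene coordinates differ from the GRCm38 annotation. Their build, the aligner and the counter were not given in the sources used here. Gene lengths implied by the CD4 table made 100% of 134905 CD8 values whole reads within 0.01. CD8 Vav1CreTet2KO replicate 1 had 50.6% odd numbers among its low counts, against 13.1% to 25.3% in the other CD8 libraries, so its recovered reads may be in another unit. A further 18 columns of per-sample values were not used.

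CD8 RPKM were tested with limma 3.58.1 (trend, robust) on log2(RPKM + 1) over genes with at least 1 RPKM in at least 3 libraries. CD4 counts were tested with edgeR 4.0.16 (quasi-likelihood, TMM, filterByExpr with a minimum count of 10), under R 4.3.3. Each SE given with edgeR is the size of the log2 difference divided by the square root of its F statistic. Comparisons between cell types and interactions used limma on all 19 libraries. Calls needed a Benjamini-Hochberg adjusted p under 0.05 over all genes tested. Alternatives were a pseudocount of 0.1, no filter, size-factor scaling, only the compared groups, replicate blocks, edgeR or DESeq2 1.42.0 on recovered reads or counts, leaving out each library, and leaving out both CD8 Cd4CreTet2KO libraries of highest macrophage marker level. The test scripts were tested on simulated data. The labels' animal numbers tie CD8 and CD4 libraries of 8 animals, whose deviations from group means correlated at -0.0607 to 0.332.

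The 9 members, Tet2 as the targeted gene and list genes that were called are named, with Tigit and Cd96 in the knockouts chosen after their values were seen, and for each member up to 3 genes of highest Pearson correlation. Some items are not reported here. The members and lists were chosen with earlier results of these data known. p-values measure the spread between libraries of single animals. Promoter windows are from RefSeq.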

Additional observations from a re-analysis of the deposited data

Results flagged for a closer look

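Ly9 is given here because all Vav1CreTet2KO libraries lay above all Tet2fl/fl libraries in CD8 cells and below them all in CD4 cells. The Vav1CreTet2KO effect in CD8 minus that in CD4 cells was 1.29 on the log2 scale (SE 0.41, 95% interval 0.43 to 2.15), with an unadjusted p under 0.05 but a limma adjusted p of 0.364, so it did not pass over 11121 genes. Ly9 was 12.3, 19.7 and 22.9 RPKM in CD8 Vav1CreTet2KO against 9.45, 8.45 and 11.7 RPKM in CD8 Tet2fl/fl, and 8.80, 14.3 and 17.3 RPKM in CD4 Vav1CreTet2KO against 17.6, 18.6 and 20.2 RPKM in CD4 Tet2fl/fl. The CD4 groups were narrowly apart, at 17.3 against 17.6 RPKM, and the value of 8.80 RPKM rests on 46 reads. The CD4 difference on its own was -0.35 (SE 0.36, edgeR adjusted p = 0.764). The 4 CD8 Cd4CreTet2KO libraries were examined for a value far from the other 3 in 10 genes, and none stood apart by Dixon's test.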

How the results depend on the processing

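Of the values of single members under the alternatives, 1184 kept their direction and side of the threshold, 94 changed sign, 20 lost a call and 7 gained one. No value that was called in the report changed sign. The cause of the changes below was not tested. The number of members called was 1 by DESeq2 on recovered reads in CD8 Vav1CreTet2KO against Tet2fl/fl (Ly9). In CD8 Cd4CreTet2KO against Tet2fl/fl it was 1 with only the compared groups in the fit (Slamf1, among 279 genes called) and 2 by DESeq2 (Slamf1 and Ly9). In CD4 Vav1CreTet2KO against Tet2fl/fl it was 1 with no filter (Icos, among 383 genes called) and 0 to 1 when libraries were left out in turn. In CD8 against CD4 it was 0 with no filter and 0 to 3 with libraries left out in Vav1CreTet2KO, 2 without both libraries of highest macrophage marker level and 2 to 4 with libraries left out in Cd4CreTet2KO, and 1 to 2 with libraries left out in Tet2fl/fl. With no filter the Icos call in Cd4CreTet2KO was also lost (adjusted p = 0.0666, limma). Without CD4 replicate 3 of Vav1CreTet2KO, Icos passed in CD8 against CD4 of that genotype at -1.83 (adjusted p = 0.0227, limma). That setting called 1146 genes, against 147 with all libraries. With other libraries left out in turn, the Icos difference there was as small as -0.78, with limma adjusted p up to 0.547. Over all genes DESeq2 called more than the tests used here, with 931 against 148, 606 against 52 and 95 against 0 in CD8 cells and 573 against 1, 42 against 4 and 517 against 9 in CD4 cells, each in the order Vav1CreTet2KO, Cd4CreTet2KO and one knockout over the other. Of the genes called in CD8 Cd4CreTet2KO 7 were higher and 45 lower, and 22 higher and 48 lower after size-factor scaling.

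The same animal gave CD8 and CD4 cells, so the animal was used as a replicate block (correlation 0.146). It moved the count over all genes to 295, 234 and 286 in CD8 against CD4 (Vav1CreTet2KO, Cd4CreTet2KO, Tet2fl/fl) and left 2, 4 and 2 members called. Replicate numbers across genotypes did not pair the libraries, with correlations of -0.0767 to 0.0633 in CD8 and -0.0839 to 0.0996 in CD4 cells. A block on that number gave 90, 0 and 0 genes in CD8 and 3, 3 and 13 in CD4 cells, in the order of comparisons above, and no member.

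The values in the next sentences are log2 differences. In CD8 Vav1CreTet2KO against Tet2fl/fl, Cd28 was 0.0098 under size-factor scaling, 0.13 under edgeR and 0.13 under DESeq2 and Cd226 was 0.045 under size-factor scaling, 0.035 under edgeR and 0.045 under DESeq2. In CD8 Cd4CreTet2KO against Tet2fl/fl, Cd84 was 0.019 under size-factor scaling, 0.019 under edgeR and 0.00029 under DESeq2 and Icos was 0.18 under the macrophage exclusion. In CD8 Vav1CreTet2KO against Cd4CreTet2KO, Slamf6 was -0.014 under size-factor scaling, -0.0031 under edgeR and -0.025 under the macrophage exclusion, Cd84 was -0.055 under size-factor scaling, -0.0034 under the replicate block, -0.10 under edgeR, -0.076 under DESeq2 and -0.016 under the macrophage exclusion, Ly9 was -0.074 under size-factor scaling, -0.081 under the replicate block, -0.041 under edgeR and -0.017 under DESeq2 and Cd28 was -0.021 under the macrophage exclusion. In CD4 Vav1CreTet2KO against Tet2fl/fl, Cd28 was -0.16 under limma and Cd84 was -0.051 under limma. In CD4 Cd4CreTet2KO against Tet2fl/fl, Slamf1 was -0.064 under limma. In CD4 Vav1CreTet2KO against Cd4CreTet2KO, Slamf6 was -0.17 under limma and -0.12 under the replicate block. In CD8 against CD4 in Vav1CreTet2KO, Slamf1 was -0.0091 under size-factor scaling. In the Cd4CreTet2KO effect in CD8 minus CD4, Sh2d1a was 0.039 under size-factor scaling. Leaving out libraries in turn, the members that changed sign had these ranges. In CD8 Vav1CreTet2KO against Tet2fl/fl, Cd28 spanned -0.37 to 0.36, Sh2d1a spanned -0.0087 to 0.31 and Cd226 spanned -0.18 to 0.19. In CD8 Cd4CreTet2KO against Tet2fl/fl, Icos spanned -0.49 to 0.046 and Slamf7 spanned -0.10 to 0.56. In CD8 Vav1CreTet2KO against Cd4CreTet2KO, Cd84 spanned -0.030 to 0.13, Ly9 spanned -0.15 to 0.27, Slamf6 spanned -0.069 to 0.27 and Cd28 spanned -0.059 to 0.66. In CD4 Vav1CreTet2KO against Tet2fl/fl, Cd84 spanned -0.074 to 0.21, Slamf6 spanned -1.0001 to 0.034, Sh2d1a spanned -0.25 to 0.66 and Cd28 spanned -0.42 to 0.54. In CD4 Cd4CreTet2KO against Tet2fl/fl, Slamf1 spanned -0.12 to 0.16 and Slamf7 spanned -1.34 to 0.11. In CD4 Vav1CreTet2KO against Cd4CreTet2KO, Ly9 spanned -0.43 to 0.079, Slamf6 spanned -0.56 to 0.48 and Cd28 spanned -0.86 to 0.10. In CD8 against CD4 in Vav1CreTet2KO, Slamf1 spanned -0.38 to 0.51, Sh2d1a spanned -0.50 to 0.33, Cd28 spanned -0.74 to 0.25 and Slamf6 spanned -0.77 to 0.19. In the Vav1CreTet2KO effect in CD8 minus CD4, Cd28 spanned -0.47 to 0.52, Icos spanned -0.51 to 0.53, Slamf7 spanned -0.37 to 0.56, Cd84 spanned -0.22 to 0.045 and Sh2d1a spanned -0.25 to 0.59. In the Cd4CreTet2KO effect in CD8 minus CD4, Sh2d1a spanned -0.24 to 0.23. Depth limits Sh2d1a, Slamf6 and Slamf1 most, with 9, 18 and 20 reads in CD4 Vav1CreTet2KO replicate 1, and leaving out a library leaves 2 in most groups.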
